A study of Mus musculus with 34 samples.

Results

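The genes described here are those whose symbol is Zfp9 followed by exactly 2 digits, taken from the gene symbols of both count tables with no use of any measured value. There were 36 of them, Zfp930 to Zfp994, among 53655 genes in each table, and the tables also held 303 other genes named Zfp with 1 to 3 digits. Most code for KRAB zinc finger proteins, a large family of DNA-binding repressors. Each zinc finger contacts a few bases of DNA through residues of a short helix, and a tandem array of fingers reads a longer site. The KRAB domain recruits TRIM28, which brings the histone methyltransferase SETDB1 and HP1 proteins and silences the bound DNA, often a transposable element, in pluripotent and early embryonic cells. The genes arose by repeated tandem duplication, so that neighbours can be close copies of each other and inbred strains can differ in their sequence.

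The data were 34 RNA libraries of cultured mouse cells. Of these, 17 came from epiblast stem cells (EpiSC), primed pluripotent cells grown over irradiated embryonic fibroblasts in medium with activin (20 ng/mL), FGF and an inhibitor of tankyrase. The other 17 came from definitive endoderm (DE) made from EpiSC lines over 40 h: a first step of 16 h used CHIR (3 uM), which blocks GSK3, and activin (40 ng/mL), a second of 24 h used LDN-193189 (100 nM), which blocks BMP receptors, and activin (100 ng/mL), and CXCR4-positive cells were then taken with magnetic beads. Groups were inbred strains with no other genotype or treatment. C57BL/6J was represented by 5 lines in each cell type, PWK/PhJ by 3 lines as EpiSC and 4 as DE, and CAST/EiJ by 2 as EpiSC and 1 as DE. For WSB/EiJ, NZO/HiLtJ and NOD/ShiLtJ each cell type had 2 lines, and for DBA/2J it had 1. Each library of a cell type was a separate line, and 16 lines gave both cell types. EpiSC and DE libraries were made with different kits, so that kit and cell type cannot be told apart. All strains were aligned to mm10, the genome of C57BL/6J, and reads can be lost at sites where a strain differs from that genome. For any lower value of a strain given below, less RNA and such a loss of reads cannot be told apart.

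EpiSC libraries held 25.6 to 33.8 M counts each, and DE libraries 23.8 to 67.7 M. The pluripotency factor Pou5f1 lay between 388 and 742 CPM (counts scaled to a common library size) in EpiSC and between 0.824 and 83.6 CPM in DE, and the endoderm factor Sox17 between 0.489 and 28 CPM in EpiSC and between 347 and 1400 CPM in DE. All 15 fibroblast markers were detected in every EpiSC library, with a summed level of 111.9 to 4686 CPM. In DE the sum ran from 130.6 to 1692 CPM, while Thy1, Dcn, Lum, Twist2 and Fap were at 0 in at least 1 library. The 2 NOD/ShiLtJ DE libraries stood apart: their fibroblast sums of 1692 and 1646 CPM were the highest in DE, and their mean over 7 endoderm markers was 7.85 and 6.63 log2 CPM against 8.15 to 9.27 in the other 15. The mesoderm markers, with a mean of -0.05 log2 CPM or lower in the other 14 DE libraries, had means of 1.66 and 0.75 in the NOD/ShiLtJ lines AC595 and AC576 and 2.85 in the NZO/HiLtJ line AC653. Of these markers, Mesp1, Tbx6, Kdr, Hand1 and Foxc2, each was at 0 in at least 1 DE library, and Hand1 reached 50.7 CPM. The part of these other cells in the members' values was not tested. In EpiSC, the endoderm mean was 6.15 and 6.36 log2 CPM in the CAST/EiJ lines and 1.68 to 5.05 in the others. The strain of the fibroblasts under the EpiSC is not given in the sources used here, so how far their RNA adds to a strain's value was not tested.

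In GENCODE M21 (GRCm38, the mm10 assembly) all 36 symbols were found, on 12 chromosomes, as 35 protein-coding genes and the transcribed pseudogene Zfp939. A KRAB A-box pattern was present in the translated reading frame of 33 and absent from Zfp956 and Zfp957, and Zfp939 has no annotated frame. The coding genes held a median of 11 C2H2 fingers, with 18 in Zfp945 and no match to the finger pattern in Zfp935 and Zfp957. Members lay mostly alone, but 9 stood within 1.3 Mb at chr17:21567008-22867134, namely Zfp948, Zfp983, Zfp942, Zfp943, Zfp947, Zfp994, Zfp944, Zfp946 and Zfp945, and 3 within 0.541 Mb at chr8:69209038-69749970, namely Zfp930, Zfp964 and Zfp963.

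The finger is the part by which members differ in what DNA they can read, so the third finger-coding unit is shown for 4 of the genes whose strain differences are described below (78 bases of the GENCODE M21 coding sequence, first cysteine codon to the linker; capitals mark the 4 codons for the helix residues that contact DNA). Zfp937 lies at chr2:150218073-150240725 on the plus strand, Zfp947 at chr17:22144359-22166190 on the minus strand, Zfp948 at chr17:21567008-21588699 on the plus strand and Zfp949 at chr9:88548020-88571061 on the plus strand.
Zfp937: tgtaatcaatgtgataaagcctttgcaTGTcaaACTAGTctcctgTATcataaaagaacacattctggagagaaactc
Zfp947: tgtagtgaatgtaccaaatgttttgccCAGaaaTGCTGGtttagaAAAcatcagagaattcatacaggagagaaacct
Zfp948: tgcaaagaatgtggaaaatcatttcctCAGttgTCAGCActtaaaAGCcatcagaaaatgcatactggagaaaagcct
Zfp949: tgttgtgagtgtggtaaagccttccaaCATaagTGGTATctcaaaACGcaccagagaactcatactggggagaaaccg
The lower-case frame of the finger is much alike in these 4 units, and no 2 of them have the same set of capital codons.

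A read can be given to a member with certainty only where its sequence is found in no other gene. Of the 100-base windows of each member's transcript, a median of 98.8% occurred in no other gene among 141767 transcripts, and 16 members were unique throughout. Genome sequence outside these transcripts was not searched, here or wherever windows are called unique below. There were 8 members below 90%: Zfp967 (0%, every window shared with some of 16 other genes), Zfp935 (0.653%), Zfp960 (30.8%), Zfp963 (62.0%), Zfp932 (73.1%), Zfp934 (83.9%), Zfp931 (84.6%) and Zfp937 (89.1%). Part of this sharing is with gene models that overlap the member rather than with distant copies: the exons of Zfp935 lie wholly inside those of Gm49359 and Zfp934 on the same strand, and 40.8% of those of Zfp963 inside Gm20422. Zfp960 shared 69.2% of its windows with Zfp97, Zfp934 shared 16.0% with Zfp808, and Zfp937 shared 10.9% with Zfp442. How reads with several alignments were counted is not given in the sources used here, so values for these 8 are uncertain.

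**Figure D1:**
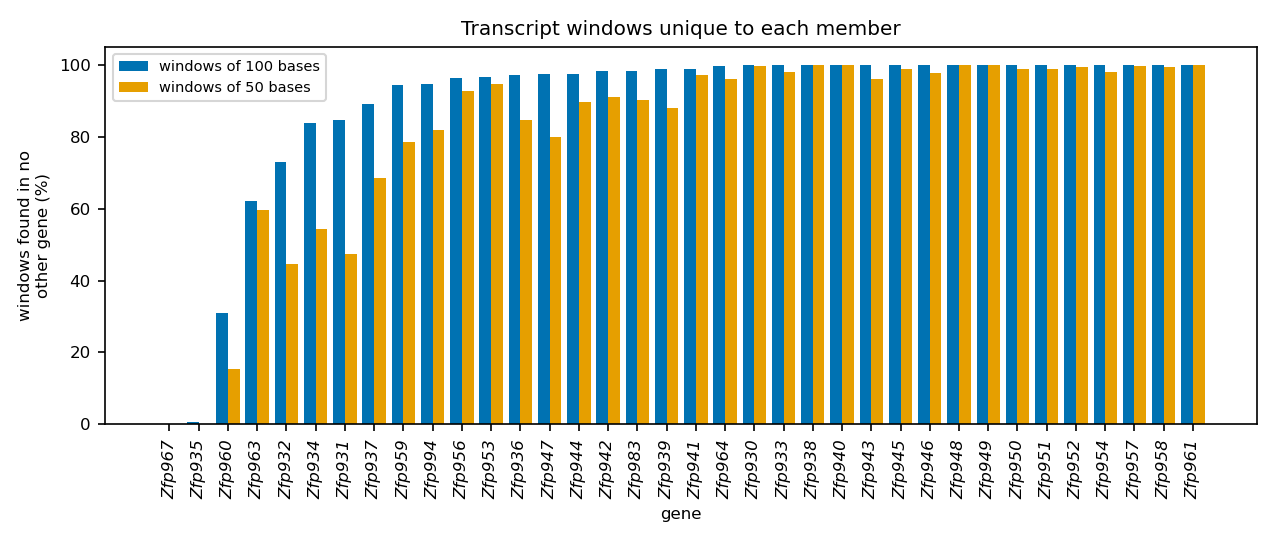
Percent of the windows of each member's transcript found in no other gene, for windows of 100 bases (blue) and 50 bases (orange), by gene. The bars for Zfp967 and Zfp935 are at or near 0 and that of Zfp960 is at 30.8% for 100 bases, while 16 genes reach 100%.

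The copies are close because whole fingers are identical. Each finger unit of a member was set against its best match anywhere in the copy's transcripts, which need not be the same finger. By this count Zfp960 and Zfp97 had the same 78 bases in 7 of 13 fingers. There were 13 mismatches over all fingers, of which 1 fell in a contact codon. Zfp937 and Zfp442 had the same bases in 6 of 13 fingers, with 15 mismatches, of which 2 fell in contact codons, and Zfp934 and Zfp808 in 4 of 11, with 16 mismatches, of which 4 fell in contact codons. A finger with the median number of mismatches is shown for the first 2 of these pairs, finger 6 of Zfp937 and finger 2 of Zfp960, with any mismatch in capitals; a read that lies within an identical stretch cannot be told apart between the pair.
Zfp937: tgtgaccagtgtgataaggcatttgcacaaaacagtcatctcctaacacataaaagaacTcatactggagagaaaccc
Zfp442: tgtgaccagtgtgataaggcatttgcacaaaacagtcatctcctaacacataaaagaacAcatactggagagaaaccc
Zfp960: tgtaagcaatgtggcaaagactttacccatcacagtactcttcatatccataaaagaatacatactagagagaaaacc
Zfp97: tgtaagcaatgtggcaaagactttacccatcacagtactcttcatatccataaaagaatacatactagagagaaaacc
The Zfp937 pair differs at 1 base outside the contact codons, and the Zfp960 pair at none.

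Levels between genes were compared per kilobase of exon. Zfp958 and Zfp961 had the highest levels in EpiSC, both 10.4 CPM per kb (SD 2.75 and 3.39, n = 17), followed by Zfp948 at 9.51 ± 4.04 CPM per kb. In DE the order began with Zfp958 at 9.89 ± 2.51 and Zfp948 at 9.65 ± 4.26 CPM per kb, and Zfp961 stood at 7.98 ± 3.15 (SD, n = 17). These leading genes lay closer together than their spread over libraries in both cell types. Without scaling for length, Zfp961, Zfp930 and Zfp946 had the highest mean log2 CPM in EpiSC and Zfp961, Zfp942 and Zfp948 in DE. At the low end, Zfp957 had 1 count in all EpiSC libraries together and 0 in DE, where a count of 0 allows up to 3 counts. Zfp967 had 1 count in each cell type, and since none of its windows is unique its level could not be read from these tables. Zfp936 had 163 counts over the EpiSC libraries and 24 over the DE libraries, of which 15 and 2 were in NOD/ShiLtJ lines AC576 and AC595 and 7 in the NZO/HiLtJ line AC653. After the filter (at least 10 counts in at least 3 libraries), 34 members were tested in EpiSC and 33 in DE.

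Strain differences were as frequent in these genes as among genes in general in EpiSC. An F test over the 5 strains with at least 2 lines in both cell types (edgeR quasi-likelihood, Benjamini-Hochberg adjustment over all genes, threshold 0.05) called 14 of 34 members in EpiSC, or 41.2%, where 40% of all 17868 genes tested and 42.3% of the other Zfp genes were called. In DE it called 9 of 33 members, or 27.3%, against 22.3% of all 19290 genes and 16.6% of the other Zfp genes. Of the variance of a member's log2 CPM, a median of 62.3% lay between strains in EpiSC, where the median over all genes was 58.6%, and the values were 55.7% and 46.8% in DE. The members' share in EpiSC was thus near the background, and the excess in DE amounted to a few genes. In DE, Zfp938 lay at the threshold, with an adjusted p of 0.05 to 2 decimals. Without both NOD/ShiLtJ lines, 8 members were called in DE, all but Zfp938, with adjusted p from 2.62e-05 to 0.043 (edgeR). The variance shares include those lines.

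The genes called in both cell types were Zfp932, Zfp937, Zfp938, Zfp945, Zfp947, Zfp948, Zfp961 and Zfp963, 8 genes that make up 57.1% of the EpiSC list and 88.9% of the DE list. The 2 cell types share their lines and the reference genome, so these lists are not independent. The share of all genes called in both cell types was not counted, so this overlap has no background to be set against. Called members had a median of 99.9% unique windows in EpiSC against 98.6% for those not called, and 97.4% against 99.4% in DE. Of the 34 members tested in either cell type, 11 were called in no strain comparison: Zfp930, Zfp933, Zfp935, Zfp939, Zfp943, Zfp944, Zfp946, Zfp950, Zfp953, Zfp954 and Zfp959. The same count was not made over all genes.

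**Figure D2:**
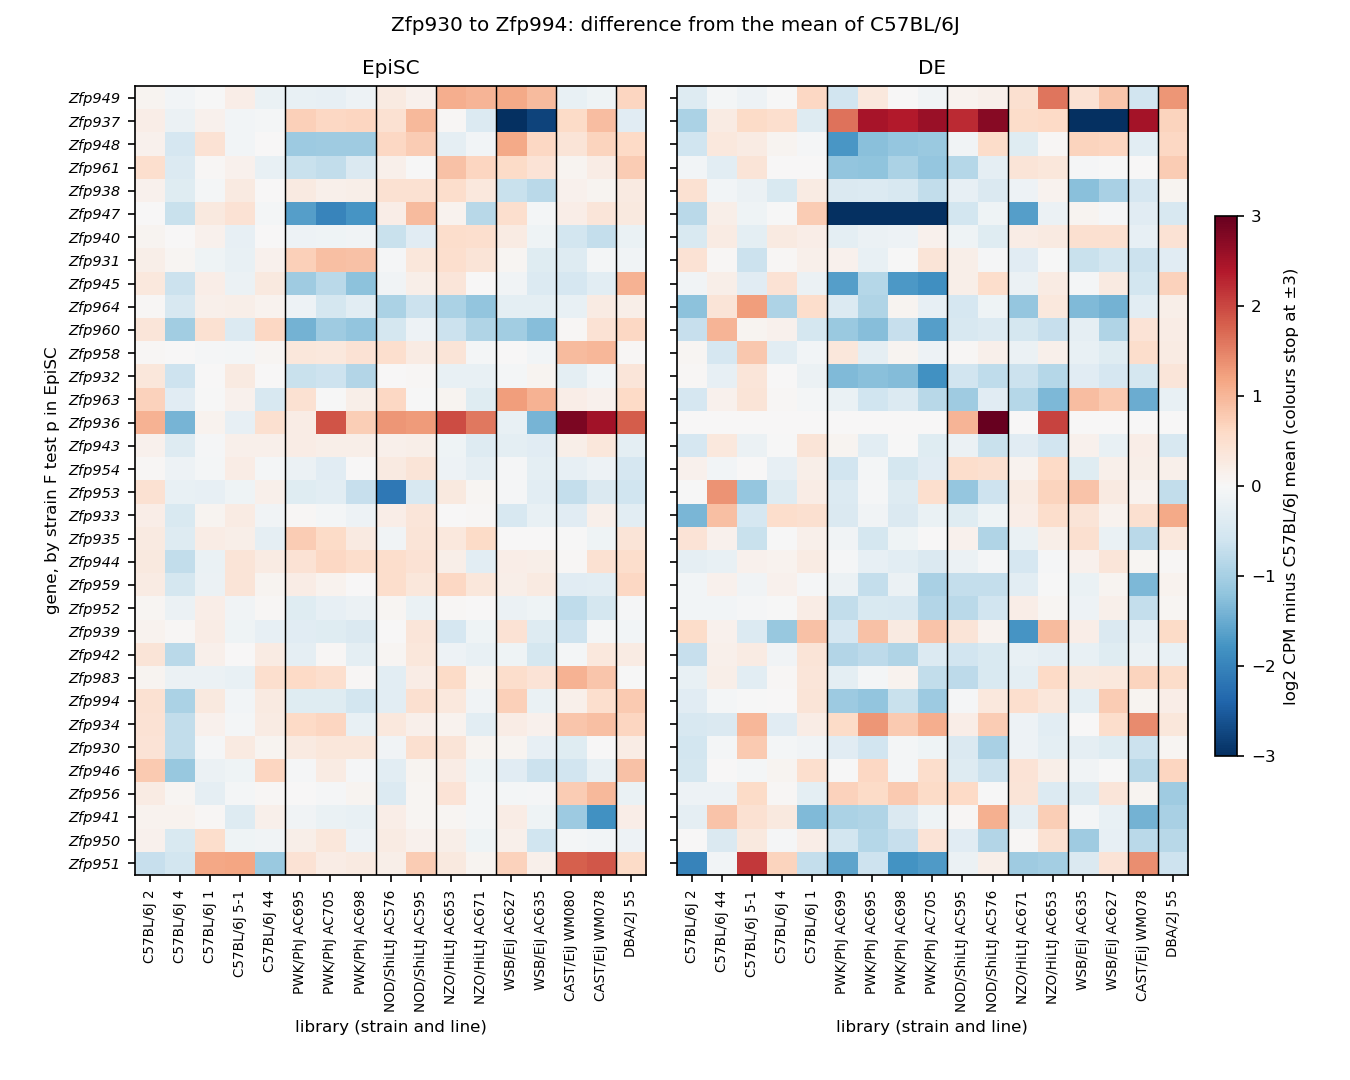
Difference of each library's log2 CPM from the mean of the C57BL/6J libraries of that cell type, for the 34 members tested in EpiSC (rows, by F test p in EpiSC) in EpiSC (left) and DE (right), with columns grouped by strain and colours that stop at -3 and 3. The darkest blue cells are Zfp937 in the WSB/EiJ libraries and Zfp947 in the PWK/PhJ DE libraries. Zfp936, not tested in DE, is at 0 counts in most DE libraries.

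Zfp937 had the smallest F test p of the members in DE and the next smallest after Zfp949 in EpiSC. Few of its reads were counted in WSB/EiJ, where less RNA and a loss of reads cannot be told apart, as said above. In EpiSC its level was 4.19, 3.24, 4.00, 3.47 and 3.55 CPM in the C57BL/6J lines 2, 4, 1, 5-1 and 44 and 0.155 and 0.482 CPM in the WSB/EiJ lines AC627 and AC635. In DE the C57BL/6J lines 2, 44, 5-1, 4 and 1 had 0.869, 2.06, 2.61, 2.50 and 1.30 CPM, and the WSB/EiJ lines AC635 and AC627 had 0.106 and 0.109 CPM. Both WSB/EiJ libraries lay below every other library in each cell type. The WSB/EiJ values rest on 18 counts in EpiSC and 9 in DE. The fibroblast sum was 1017 CPM in the EpiSC of AC627 and 2638 CPM in that of AC635, which had the higher Zfp937 level. Whether fibroblast RNA adds to that level was not tested. Against C57BL/6J, the log2 fold was -3.50 ± 0.37 (SE) in EpiSC (adjusted p 3.83e-05, edgeR) and -4.09 ± 0.59 in DE (adjusted p 0.00106, edgeR), and with the fibroblast covariate -3.54 and -3.94. For its copy Zfp442, which shares 10.9% of the windows of Zfp937, the log2 fold in WSB/EiJ was -0.38 ± 0.25 (adjusted p 0.463, edgeR) in EpiSC and -0.49 ± 0.54 (adjusted p 0.842, edgeR) in DE.

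Among the other strains, Zfp937 was at a higher level than in C57BL/6J in PWK/PhJ, NOD/ShiLtJ and CAST/EiJ. In NZO/HiLtJ and DBA/2J it was near that of C57BL/6J. PWK/PhJ had 6.03, 5.70 and 5.76 CPM in EpiSC and 5.48, 9.85, 9.21 and 10.8 CPM in DE, above all C57BL/6J lines of the same cell type, with log2 folds of 0.66 ± 0.23 (adjusted p 0.048) and 2.30 ± 0.34 (adjusted p 0.000288, edgeR). The NOD/ShiLtJ lines AC576 and AC595 had 5.05 and 7.31 CPM in EpiSC (log2 fold 0.75 ± 0.26, adjusted p 0.0761, edgeR). In DE they had 11.8 and 8.44 CPM, with a log2 fold of 2.53 ± 0.39 (adjusted p 0.00107, edgeR). With the fibroblast list as a covariate that DE fold was 3.09, with an adjusted p of 0.147. CAST/EiJ had 5.46 and 7.06 CPM in EpiSC (log2 fold 0.76 ± 0.26, adjusted p 0.0405, edgeR) and 10.1 CPM in its single DE library. NZO/HiLtJ had 3.74 and 2.74 CPM in EpiSC and 2.64 and 2.57 CPM in DE, within or next to the range of C57BL/6J. DBA/2J had 2.88 CPM in EpiSC and 2.78 in DE. In EpiSC, the DBA/2J library and the NZO/HiLtJ line AC671 lay below every C57BL/6J line. By mean level in DE the order was NOD/ShiLtJ at 10.1 ± 2.39, PWK/PhJ at 8.83 ± 2.33, NZO/HiLtJ at 2.60 ± 0.05, C57BL/6J at 1.87 ± 0.757 and WSB/EiJ at 0.107 ± 0.002 CPM (SD). Neighbours in that order overlapped for NOD/ShiLtJ with PWK/PhJ and for NZO/HiLtJ with C57BL/6J.

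**Figure D3:**
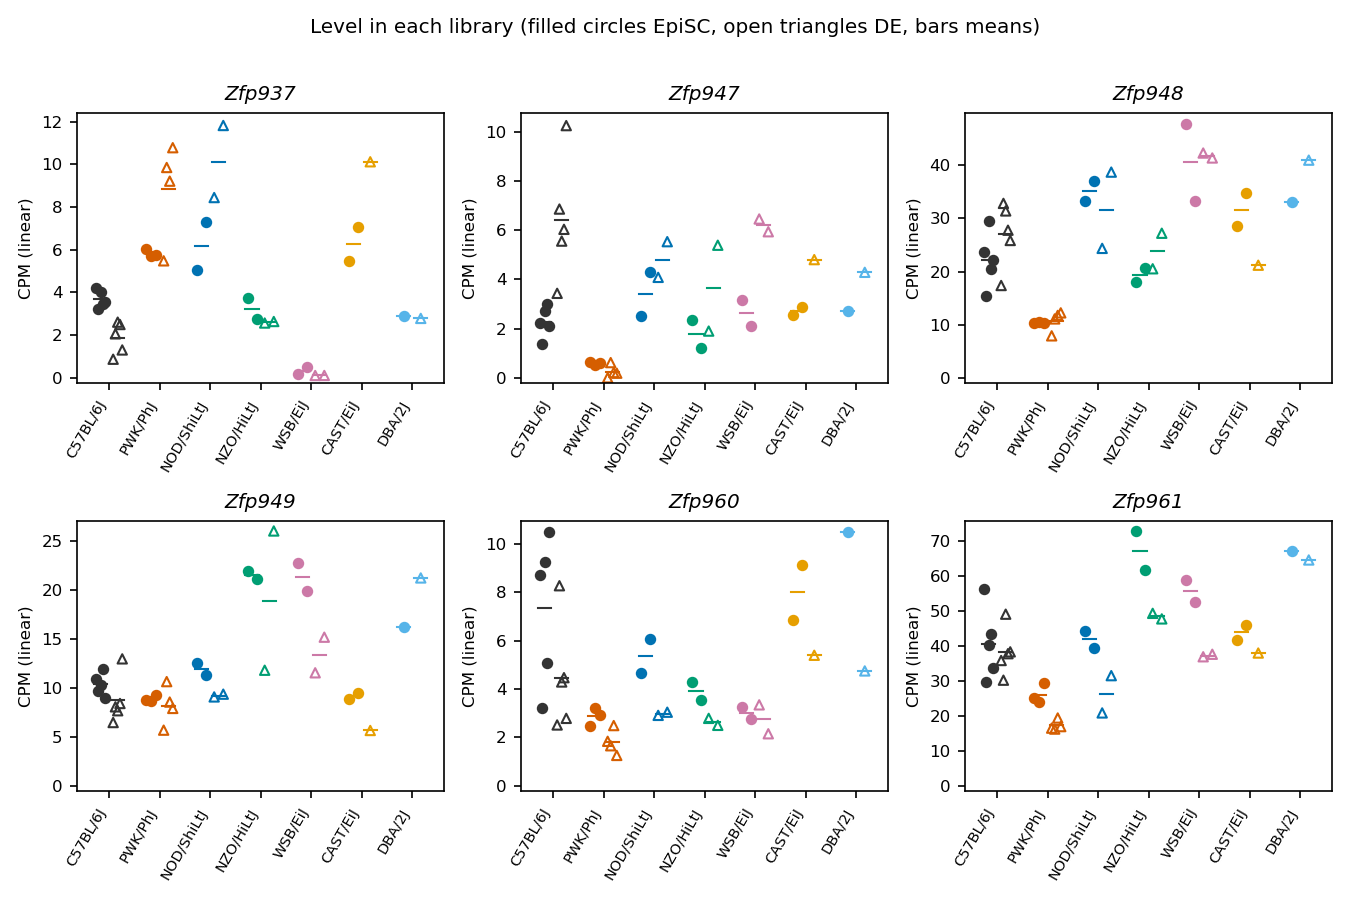
CPM (linear axis from 0) of 6 members in each library by strain, with filled circles for EpiSC, open triangles for DE and short bars for group means. Zfp937 is near 0 in WSB/EiJ and Zfp947 near 0 in PWK/PhJ, while Zfp949 is above 19 CPM in the NZO/HiLtJ and WSB/EiJ EpiSC libraries.

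Several genes of the chromosome 17 cluster were lower in PWK/PhJ, a strain derived from wild Mus musculus musculus. In DE, 10 of 33 members were called against C57BL/6J (30.3%, against 17.1% of all genes), 2 higher and 8 lower. The share lower was 24.2%, against 7.47% of all genes, and the share higher 6.06%, against 9.66%. The other Zfp genes were also called lower more often than higher there, 9.19% lower and 1.77% higher. In EpiSC, 9 of 34 were called (26.5%, against 29.8% of all genes), 3 higher and 6 lower, a lower share of 17.6% against 16.1% and a higher share of 8.82% against 13.7%. The median log2 fold over the members was -0.30 in DE and -0.08 in EpiSC, and -0.01 over all genes in both. Of the lists, 7 genes were shared (77.8% of the EpiSC list and 70% of the DE list), all with the same direction: Zfp937 was higher, and Zfp932, Zfp945, Zfp947, Zfp948, Zfp960 and Zfp961 were lower. How far the lists of all genes overlap between the cell types was not counted. The fibroblast sum was 233.7 to 654.9 CPM in the PWK/PhJ DE libraries and 130.6 to 385.4 in those of C57BL/6J, and 6 members were called in DE when the fibroblast markers entered the fit as a covariate. Without the NOD/ShiLtJ DE lines 10 were called.

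Of the 9 genes of the chromosome 17 cluster, 5 were called lower in PWK/PhJ DE (Zfp942, Zfp945, Zfp947, Zfp948 and Zfp994) and 3 in PWK/PhJ EpiSC (Zfp945, Zfp947 and Zfp948), and none was called higher. The DE share lower was 55.6%, against 7.47% of all genes, and the EpiSC count stood against 16.1% of all genes. Their median log2 fold was -0.71 in DE and -0.22 in EpiSC. The other 7 tested genes inside the same interval, which include Zfp229, Zfp758, Zfp760 and Zfp820, had medians of 0.11 and 0.05, with 0 called lower in either cell type by edgeR and Zfp760 higher in EpiSC (log2 fold 0.74, adjusted p 0.0368). In the 7 other contrasts edgeR called 0 or 1 of the 9 genes each. Of all genes, 1.41% (NZO/HiLtJ DE) to 31.6% (CAST/EiJ EpiSC) were called there. The cluster calls were all in EpiSC and higher: Zfp983 in CAST/EiJ (log2 fold 0.94), and Zfp948 in NOD/ShiLtJ (0.67) and WSB/EiJ (0.86). These contrasts rest on few lines a strain, so a lack of calls does not show a lack of change.

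**Figure D4:**
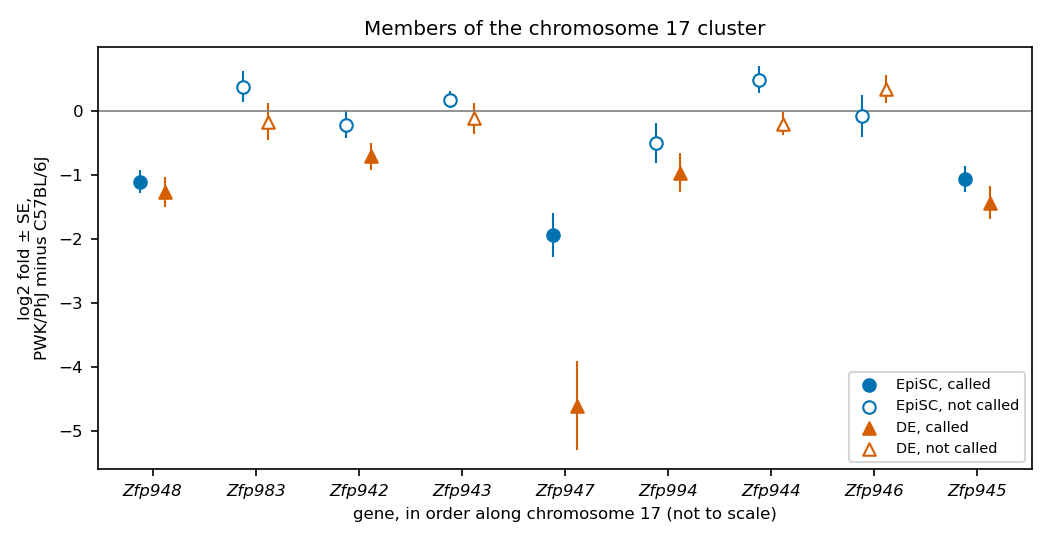
Log2 fold of PWK/PhJ against C57BL/6J with its standard error for the 9 cluster members in their order along chromosome 17, in EpiSC (circles) and DE (triangles), filled where the adjusted p was under 0.05. Filled symbols are all below 0, and Zfp947 is lowest at -1.94 in EpiSC and -4.60 in DE.

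Zfp947 fell furthest. In EpiSC its level was 2.21, 1.36, 2.69, 3.01 and 2.09 CPM in the C57BL/6J lines 2, 4, 1, 5-1 and 44 and 0.652, 0.507 and 0.601 CPM in the PWK/PhJ lines AC695, AC705 and AC698. In DE the C57BL/6J lines 2, 44, 5-1, 4 and 1 had 3.43, 6.85, 5.55, 6.03 and 10.2 CPM, and the PWK/PhJ lines AC699, AC695, AC698 and AC705 had 0, 0.616, 0.213 and 0.186 CPM. All PWK/PhJ libraries were below all other libraries of the same cell type. The log2 folds were -1.94 ± 0.34 in EpiSC (adjusted p 0.000755, edgeR) and -4.60 ± 0.69 in DE (adjusted p 0.000317, edgeR), the latter on 34 counts over 4 PWK/PhJ libraries. With the fibroblast covariate they were -2.02 and -3.57 (adjusted p 0.00187 and 0.00271). The fibroblast sum of the PWK/PhJ libraries was 3037 to 3921 CPM in EpiSC and 233.7 to 654.9 CPM in DE. Of its windows, 97.4% were found in no other gene among the GENCODE M21 transcripts.

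Zfp948 was low in PWK/PhJ and high in WSB/EiJ. The PWK/PhJ lines had 10.2, 10.4 and 10.3 CPM in EpiSC and 7.89, 11.1, 11.7 and 12.2 CPM in DE. The C57BL/6J lines had 23.6, 15.4, 29.5, 20.5 and 22.1 CPM in EpiSC and 17.4, 32.8, 31.4, 27.8 and 25.9 CPM in DE, and the WSB/EiJ lines 47.9 and 33.4 CPM in EpiSC and 42.3 and 41.4 CPM in DE. The 3 strains did not overlap in either cell type. Against C57BL/6J the log2 fold of PWK/PhJ was -1.11 ± 0.18 in EpiSC (adjusted p 0.000474, edgeR) and -1.27 ± 0.23 in DE (adjusted p 0.00149, edgeR). That of WSB/EiJ in DE was 0.63 ± 0.27 and was not called (adjusted p 0.351, edgeR). In EpiSC, WSB/EiJ was higher by 0.86 ± 0.19 (adjusted p 0.0136, edgeR) and NOD/ShiLtJ by 0.67 ± 0.19 (adjusted p 0.0366, edgeR), a call lost without either NOD/ShiLtJ line (adjusted p 0.111 and 0.154) and without the C57BL/6J line 44 (0.0664). All its windows were unique, as were those of Zfp945, for which the log2 fold of PWK/PhJ was -1.07 ± 0.20 in EpiSC (adjusted p 0.00145) and -1.43 ± 0.26 in DE (adjusted p 0.00117, edgeR).

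Other members outside the cluster followed strain in PWK/PhJ as well. Zfp961, whose windows were all unique, had 25.2, 23.9 and 29.3 CPM in the PWK/PhJ EpiSC lines and 56.3, 29.7, 40.4, 43.4 and 33.9 CPM in those of C57BL/6J (log2 fold -0.64 ± 0.17, adjusted p 0.0115, edgeR). In DE the PWK/PhJ lines had 16.5, 16.2, 19.4 and 16.95 CPM and the C57BL/6J lines 35.9, 30.3, 49.2, 37.8 and 38.4 CPM (log2 fold -1.08 ± 0.17, adjusted p 0.000469, edgeR), with no overlap in either cell type. Zfp932, with 73.1% unique windows, was lower in PWK/PhJ by a log2 fold of -0.76 ± 0.18 in EpiSC and -1.37 ± 0.21 in DE (adjusted p 0.00536 and 0.000328, edgeR), and its ranges overlapped with C57BL/6J in EpiSC and not in DE. Zfp931, with 84.6% unique windows, was higher in the PWK/PhJ EpiSC lines, at 8.18, 9.28 and 9.19 CPM against 4.23 to 5.65 CPM in C57BL/6J (log2 fold 0.83 ± 0.16, adjusted p 0.00175, edgeR). In DE its log2 fold was 0.11 ± 0.28 (adjusted p 0.85).

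Zfp949, unique in all its windows, had the smallest F test p of the members in EpiSC and was high in NZO/HiLtJ and WSB/EiJ. The C57BL/6J lines had 10.9, 9.71, 10.3, 11.9 and 8.997 CPM, the NZO/HiLtJ lines 21.9 and 21.1 CPM and the WSB/EiJ lines 22.7 and 19.9 CPM. No library of these 2 strains overlapped C57BL/6J, and the log2 folds were 1.05 ± 0.12 (adjusted p 0.000158) and 1.03 ± 0.12 (adjusted p 0.000122, edgeR). DBA/2J had 16.1 CPM in its 1 EpiSC library and 21.2 in its 1 DE library. In DE the NZO/HiLtJ lines AC671 and AC653 had 11.8 and 25.98 CPM, the latter in the library with the highest mesoderm mean, and the WSB/EiJ lines 11.5 and 15.2 CPM, against 6.45 to 12.9 CPM in C57BL/6J, so that the ranges overlapped, and the F test gave an adjusted p of 0.0685.

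The contrasts of strains with 2 lines called few members. In EpiSC, 4 of 34 members were called in NOD/ShiLtJ, 2 higher and 2 lower (11.8%, against 12.9% of all genes, of which 5.98% were higher and 6.94% lower). NZO/HiLtJ had 4, 3 higher and 1 lower (11.8%, against 5.52% of all genes, 2.7% higher and 2.82% lower). WSB/EiJ had 5, 3 higher and 2 lower (14.7%, against 7.41% of all genes, 3.45% higher and 3.96% lower). In DE the only member called was Zfp937, higher in NOD/ShiLtJ (11.4% of all genes were called, 7.98% higher and 3.38% lower) and lower in WSB/EiJ (2.28% of all genes, 1.19% higher and 1.09% lower). In NZO/HiLtJ DE edgeR called 0 of 33 members (1.41% of all genes, 0.918% higher and 0.492% lower), with 3 at an unadjusted p under 0.05 and 2 called by DESeq2. All contrasts share the C57BL/6J libraries. With 2 lines a strain the EpiSC counts depended on both lines: without either line of a strain fewer members were called, and fewer of all genes. Such a fit leaves that strain 1 line, so a fragile count and a loss of power cannot be told apart. Without the C57BL/6J line 44, no member was called in NOD/ShiLtJ EpiSC. Of all genes, 1614 were called there, against 2309 with every line (edgeR).

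Among the genes behind these counts, Zfp940 was lower in the NOD/ShiLtJ EpiSC lines, at 12.2 and 15.4 CPM, and higher in those of NZO/HiLtJ, at 28.3 and 27.8 CPM, than in C57BL/6J, at 16.6 to 21.2 CPM (log2 folds -0.51 ± 0.14 and 0.51 ± 0.13, adjusted p 0.0307 and 0.0387, edgeR). Zfp938 was lower in the WSB/EiJ EpiSC lines, at 4.90 and 4.41 CPM against 6.11 to 9.52 CPM in C57BL/6J (log2 fold -0.77 ± 0.17, adjusted p 0.0117, edgeR). In DE it was at 5.04 and 6.17 CPM in WSB/EiJ and 8.91 to 16.6 CPM in C57BL/6J (log2 fold -1.15 ± 0.29, adjusted p 0.0515, edgeR). Neither pair of ranges overlapped. Zfp961 was higher in the NZO/HiLtJ EpiSC lines, at 73.0 and 61.7 CPM (log2 fold 0.72 ± 0.18, adjusted p 0.0339, edgeR).

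Zfp964 and Zfp963, neighbours on chromosome 8, differed in which strain was called. Zfp964 was lower in the EpiSC lines of NOD/ShiLtJ, at 2.45 and 3.03 CPM, and of NZO/HiLtJ, at 2.46 and 2.07 CPM, than in C57BL/6J, at 3.42 to 5.41 CPM (log2 folds -0.81 ± 0.23 and -1.10 ± 0.24, adjusted p 0.0365 and 0.0166, edgeR). Zfp963 was higher in the WSB/EiJ EpiSC lines, at 4.08 and 3.55 CPM against 1.20 to 2.77 CPM in C57BL/6J (log2 fold 1.11 ± 0.31, adjusted p 0.0417, edgeR). In DE it had 6.06 and 5.53 CPM in WSB/EiJ and 2.195 to 4.17 CPM in C57BL/6J. That contrast was not called (log2 fold 0.848 ± 0.375, adjusted p 0.369, edgeR). The EpiSC calls of both genes were lost when either line of the strain in question was left out, in fits that leave that strain 1 line. That of Zfp964 in NOD/ShiLtJ was also lost with no filter (adjusted p 0.0976) and without the C57BL/6J line 1 or 44 (0.0515 and 0.0654). That of Zfp963 was also lost with no filter (adjusted p 0.0662) and without any of several lines of other strains (0.0547 to 0.0776), and its F test call in DE with no filter (0.223), with the fibroblast covariate (0.065) and without either WSB/EiJ line (0.138 and 0.0896). In GENCODE M21, 40.8% of the exon bases of Zfp963 lie in Gm20422 on the same strand. How reads there were counted is not given in the sources used here, and the effect on these values was not tested.

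CAST/EiJ, derived from wild Mus musculus castaneus, could be compared in EpiSC. There, 10 of 34 members were called, 7 higher and 3 lower (29.4%, against 31.6% of all genes, 14.5% higher and 17.1% lower). Without either of its 2 lines fewer members were called, and fewer of all genes. The endoderm markers were higher in these lines than in any other EpiSC library, as given above, and their part in the calls was not tested. Zfp958, unique in all windows, was at 38.9 and 40.7 CPM in CAST/EiJ and at 19.5 to 20.98 CPM in C57BL/6J (log2 fold 0.98 ± 0.12, adjusted p 3.07e-05, edgeR). Zfp956, one of the members without the KRAB pattern, was at 20.6 and 24.1 CPM against 10.2 to 14.4 CPM (log2 fold 0.86 ± 0.16, adjusted p 0.00127, edgeR). Zfp941 was lower, at 6.43 and 3.88 CPM against 10.5 to 15.2 CPM (log2 fold -1.42 ± 0.21, adjusted p 0.000235, edgeR), and its single CAST/EiJ DE library had the lowest level in DE, 2.84 CPM. None of these ranges overlapped with C57BL/6J.

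The largest CAST/EiJ fold belonged to a gene near the limit of detection. Zfp936 had 33 and 25 counts in the 2 CAST/EiJ EpiSC libraries and 7, 0, 3, 2 and 5 in those of C57BL/6J (log2 fold 2.94 ± 0.66, adjusted p 0.00418, edgeR). The other CAST/EiJ calls were Zfp934, Zfp937, Zfp951 and Zfp983, all higher with log2 folds of 0.76 to 1.51, and Zfp940 and Zfp952, both lower, with log2 folds of -0.63 and -0.66. Zfp951 also varied among lines of 1 strain, a pattern picked out after its values were seen. In EpiSC it was at 11.01 and 11.08 CPM in the C57BL/6J lines 1 and 5-1 but at 3.01, 3.31 and 2.22 CPM in lines 2, 4 and 44. In DE lines 1 and 5-1 were at 2.64 and 19.2 CPM, and lines 2, 4 and 44 at 1.05, 7.05 and 4.12 CPM, so that the grouping of lines was not the same in both cell types.

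For the members with a close copy, both genes of the pair were read. Zfp960, with 69.2% of its windows in common with Zfp97, was at 2.48, 3.20 and 2.93 CPM in the PWK/PhJ EpiSC lines and 8.74, 3.24, 9.27, 5.07 and 10.5 CPM in those of C57BL/6J (log2 fold -1.36 ± 0.33, adjusted p 0.00694, edgeR). Zfp97 was also lower in PWK/PhJ, by a log2 fold of -1.51 ± 0.31 in EpiSC and -1.97 ± 0.36 in DE (adjusted p 0.0023 and 0.0015, edgeR), where that of Zfp960 was -1.25 ± 0.40 (adjusted p 0.0417). In CAST/EiJ EpiSC, Zfp97 was at 2.25 and 2.51 CPM and lower than in C57BL/6J (log2 fold -1.37 ± 0.36, adjusted p 0.0103, edgeR), while Zfp960 stood at 6.87 and 9.14 CPM, inside the C57BL/6J range. Zfp934 and Zfp808 went opposite ways in CAST/EiJ EpiSC: Zfp934 was at 15.4 and 16.2 CPM (log2 fold 0.82 ± 0.26, adjusted p 0.0298) and Zfp808 at 3.38 and 3.63 CPM (log2 fold -1.17 ± 0.38, adjusted p 0.0306, edgeR). In PWK/PhJ DE, Zfp934 was higher by a log2 fold of 0.94 ± 0.30 (adjusted p 0.0456), with overlapping ranges, and Zfp808 had -0.69 ± 0.30 (adjusted p 0.142, edgeR). Whether reads moved between the genes of a pair was not tested.

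Between cell types, more members fell than rose. In a fit that also held strain, 22 of 34 members were called between DE and EpiSC (64.7%, against 77.2% of all 20907 genes), 6 higher in DE and 16 lower. The lower share was 47.1% against 39.9% of all genes, and the higher share 17.6% against 37.3%. The median log2 fold was -0.27 for the members, -0.22 for the other Zfp genes and -0.06 for all genes. Fewer cells of a type and less RNA per cell cannot be told apart in bulk RNA, and neither can cell type and kit, as said above. Without all NOD/ShiLtJ libraries 21 members were called, and the log2 folds were 1.18 for Zfp983, 1.02 for Zfp954, 0.75 for Zfp947, 0.65 for Zfp935, -1.60 for Zfp953, -1.32 for Zfp933 and -1.06 for Zfp956, close to those given next. With cell line as a replicate block 19 were called.

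Zfp983 and Zfp954 rose in all 16 lines with both libraries. Zfp983, in the chromosome 17 cluster, ran from 1.48 to 3.89 CPM (median 2.17) in EpiSC and from 2.69 to 7.56 CPM (median 4.79) in DE, a log2 fold of 1.14 ± 0.14 (adjusted p 9.03e-09, edgeR). Zfp954 ran from 6.06 to 11.4 CPM (median 7.83) in EpiSC and from 10.8 to 24.5 CPM (median 17.3) in DE, a log2 fold of 1.03 ± 0.09 (adjusted p 9.17e-12, edgeR). The ranges of the 2 cell types overlapped for both genes. The other members that rose were Zfp947 (0.72 ± 0.29), Zfp935 (0.63 ± 0.14), Zfp950 (0.44 ± 0.14) and Zfp938 (0.26 ± 0.10, log2 folds with SE). Zfp935 lies inside other gene models and 0.653% of its windows were unique, so that its rise cannot be told apart from that of the overlapping genes.

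Zfp953, Zfp933 and Zfp956 fell in all 16 lines. Zfp953 ran from 1.44 to 9.02 CPM (median 5.31) in EpiSC and from 0.705 to 4.31 CPM (median 1.65) in DE, a log2 fold of -1.62 ± 0.20 (adjusted p 9.17e-09, edgeR). Zfp933 ran from 10.1 to 18.4 CPM (median 14.3) in EpiSC and from 1.74 to 10.3 CPM (median 4.94) in DE, a log2 fold of -1.41 ± 0.16 (adjusted p 2.76e-09, edgeR). Zfp956 ran from 9.21 to 24.1 CPM (median 12.4) in EpiSC and from 2.72 to 9.89 CPM (median 6.04) in DE, a log2 fold of -0.999 ± 0.133 (adjusted p 6.08e-08, edgeR). The ranges overlapped for each of these genes, most widely for Zfp953. Zfp936 had the largest fold, -3.56 ± 0.65 (adjusted p 1.13e-05, edgeR), on the few counts given above. Without all NOD/ShiLtJ libraries it was -4.52 (adjusted p 2.76e-07), and without the NZO/HiLtJ DE line AC653 -4.17 (adjusted p 2.03e-06, edgeR). These 3 DE libraries, which hold all its DE counts, are those with the raised mesoderm markers. Zfp940 and Zfp931 also fell in all 16 lines, and the 10 others that fell had log2 folds from -0.26 (Zfp949) to -0.85 (Zfp941).

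**Figure D5:**
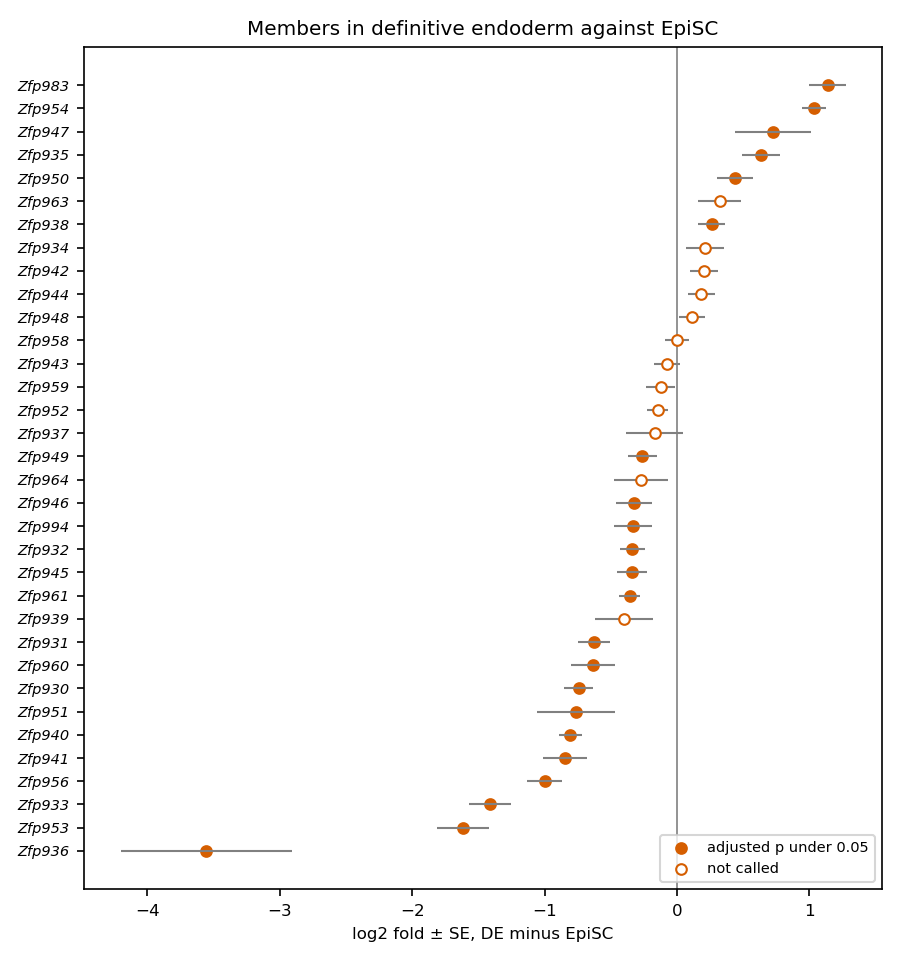
Log2 fold of DE against EpiSC with its standard error for the 34 members tested, sorted, filled where the adjusted p was under 0.05. Of 34 genes, 6 filled points lie above 0, up to 1.14 (Zfp983), and 16 below, down to -3.56 (Zfp936).

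A list of 16 chromatin genes, among them corepressors through which KRAB proteins act, was counted in the same fits. It held Trim28, Setdb1, Atf7ip, Cbx1, Cbx3, Cbx5, Uhrf1, Dnmt1, Dnmt3a, Dnmt3b, Hdac1, Hdac2, Chd4, Mbd3, Morc3 and Smarcad1. Not all of these are particular to KRAB proteins, and Dnmt3b was also used as a marker of EpiSC. In DE against EpiSC all 16 were called, where 77.2% of all genes were, 3 higher (Hdac1, Hdac2 and Mbd3; 37.3% of all genes) and 13 lower (39.9% of all genes), with a median log2 fold of -0.87. Trim28, the direct partner of the KRAB domain, fell by 1.58 ± 0.09, Setdb1 by 0.79 ± 0.08 and the HP1 gene Cbx5 by 2.63 ± 0.15 on the log2 scale. For these folds too, kit and cell type cannot be told apart. Between strains, 7 of 16 were called by the F test in EpiSC (43.8%, near the 40% of all genes) and 5 in DE (31.2%, against 22.3% of all genes), and Trim28 was in neither list (adjusted p 0.243 and 0.314, edgeR). The F test leaves out CAST/EiJ. In its EpiSC contrast 7 of 16 were called lower (43.8%, against 17.1% of all genes) and 0 higher (against 14.5%). The endoderm markers were raised in these lines, as given above, and their part was not tested.

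The strain effect itself was compared between the cell types in 1 fit of all libraries. Of 34 members, 1 was called (2.94%, against 10.7% of all genes; 4 at an unadjusted p under 0.05), and this was Zfp937 (adjusted p 0.0168, edgeR). Relative to C57BL/6J, its log2 fold was larger in DE than in EpiSC by 1.67 ± 0.43 in PWK/PhJ and 1.79 ± 0.51 in NOD/ShiLtJ, and the difference was 0.70 ± 0.52 in NZO/HiLtJ and -0.57 ± 0.61 in WSB/EiJ. In mean level, C57BL/6J went from 3.69 ± 0.395 CPM in EpiSC to 1.87 ± 0.757 CPM in DE (SD, n = 5), and PWK/PhJ from 5.83 ± 0.178 (SD, n = 3) to 8.83 ± 2.33 CPM (SD, n = 4). Without all NOD/ShiLtJ libraries its adjusted p was 0.0478. The call was lost with cell line as a replicate block (adjusted p 0.0862), without a filter on low counts (0.0821) and without the NOD/ShiLtJ DE line AC576 (0.0563). For Zfp947 the difference in PWK/PhJ was -2.63 ± 0.73, with an adjusted p of 0.12 over the 5 strains (edgeR), and for Zfp936 the adjusted p was 0.141. Zfp947 was called with no filter (0.0212), with DESeq2 (0.00523) and without the PWK/PhJ DE line AC695 (0.0168), and Zfp936 with no filter (0.0423). Without all NOD/ShiLtJ libraries their adjusted p was 0.121 and 0.409.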

How the data were processed

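Counts of reads per gene were used as deposited by the authors: whole numbers, not normalized, in 1 table for each cell type. The submitters' processing notes name the aligner STAR 2.4, the counter HTSeq 0.6.1, the build mm10 and DESeq2, the last with no version. Not given in the sources used here: annotation release, strand option and how multiply aligned reads were handled. Whether lines of a strain came from separate embryos is also not given, so p-values measure the spread between lines. Both kits were read as pairs of 100 bases, per the labels' protocols, and PCR copies were not told apart by molecular identifiers.

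Genes that reached 10 counts in 3 or more libraries were tested by the robust quasi-likelihood method of edgeR 4.0.16 (R 4.3.3) after TMM scaling, with p-values adjusted over every tested gene by Benjamini-Hochberg and a threshold of 0.05. Strain contrasts and the F test over 5 strains were fitted on the 17 libraries of a cell type. Cell types and their interaction with strain were fitted on all 34, with the libraries of a line treated as independent. CPM values use TMM factors over all 34 libraries, log2 CPM has a prior count of 2, and SE is the fold divided by the square root of F. The fits were checked on simulated counts. No library was a duplicate: chi-square over its degrees of freedom was at least 6.57 for pairs of replicates in EpiSC and at least 31.5 in DE. Lines pair the EpiSC and DE libraries by origin; over 14 lines of strains with at least 2, the correlation of their deviations from the group means ran from -0.004 to 0.178 (median 0.0389).

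Uniqueness was counted over transcript windows of 100 bases, and of 50 as an alternative, in GENCODE M21. Members were named by rule: those among the 8 smallest F test p in a cell type (mean log2 CPM of at least 0), the largest called fold in each direction of a contrast, the 4 largest called folds in each direction between cell types, the 3 smallest interaction p and the 3 highest mean log2 CPM. Other values, such as those of Zfp934, Zfp951, Zfp958 and Zfp960, further contrasts of the named genes, the copies and the other genes of the chromosome 17 interval, were chosen after they were seen. The members and lists were chosen with earlier results of these data known. Alternatives were RLE scaling, no filter, at least 30 counts, DESeq2 1.42.0, a fibroblast covariate, cell line as a block and leaving out libraries. Protein sequences and promoters are not shown.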

Additional observations from a re-analysis of the deposited data

Results flagged for a closer look

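In groups of 4 or more libraries, a library was picked out when its gap to the next one was large for the range of its group. This held for 5 of 100 groups tested, and chance flags about 1 in 20 groups. In the C57BL/6J EpiSC lines, line 5-1 was lowest for Zfp940, at 4.06 log2 CPM with the next line at 4.31, and for Zfp941, at 3.4 with the next at 3.82. Line 4 was lowest there for Zfp964, at 1.8 with the next at 2.31. In DE, the C57BL/6J line 1 was highest for Zfp952, at 3.9 log2 CPM with the next at 3.65, and the PWK/PhJ line AC705 was lowest for Zfp932, at 2.07 with the next at 2.57. Zfp937 was picked out because its strain effect differed between EpiSC and DE (adjusted p 0.0168, edgeR).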

How the results depend on the processing

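Of 326 member counts under an alternative, 292 stayed within 1.5 times the reported count. Without a filter, 2 members were called for NOD/ShiLtJ in EpiSC, 2 for NOD/ShiLtJ in DE and 3 for the interaction, and with at least 30 counts 2 were called for WSB/EiJ in DE. With DESeq2, 7 were called for NOD/ShiLtJ in EpiSC, 14 by the F test in DE, 2 each for NOD/ShiLtJ, NZO/HiLtJ and WSB/EiJ in DE and 4 for the interaction. With the fibroblast covariate, DE counts were 0 for NOD/ShiLtJ, 1 for NZO/HiLtJ and 6 for PWK/PhJ. With cell line as a replicate block, 0 members were called for the interaction by edgeR and 19 for DE against EpiSC. Leaving out 1 library at a time gave 11 to 16 calls by the F test in EpiSC and 6 to 13 in DE. In EpiSC contrasts it gave 5 to 11 for CAST/EiJ, 0 to 5 for NOD/ShiLtJ, 1 to 4 for NZO/HiLtJ, 7 to 9 for PWK/PhJ and 2 to 6 for WSB/EiJ. In DE contrasts it gave 1 to 1 for NOD/ShiLtJ, 0 to 1 for NZO/HiLtJ, 7 to 11 for PWK/PhJ and 1 to 2 for WSB/EiJ. It gave 20 to 24 for DE against EpiSC and 0 to 2 for the interaction, with 0 without the NOD/ShiLtJ DE line AC576 and 2 without the PWK/PhJ DE line AC695. In EpiSC, 2 were called for NOD/ShiLtJ without the C57BL/6J line 4 or 1, the NZO/HiLtJ line AC653 or the PWK/PhJ line AC695 or AC705. For NZO/HiLtJ, 2 were called without the C57BL/6J line 4 or 44 or the PWK/PhJ line AC695. In DE, 2 were called for WSB/EiJ without the C57BL/6J line 4, and 1 for NZO/HiLtJ without the NZO/HiLtJ line AC671. Leaving a strain with 1 line assumes that it varies like the others. Without the NOD/ShiLtJ lines, an alternative chosen after seeing the data, 8 were called by the F test in DE. Of 1109 values for named genes, 1050 kept their direction and side of the threshold, 54 lost the call, 4 gained it, 0 reversed and 1 moved: the median share of unique windows, which was 95.4% with 50 bases. The causes were not tested. Depth limits Zfp936, Zfp957 and Zfp967, Zfp937 in WSB/EiJ and Zfp947 in PWK/PhJ DE, all at few counts.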

Other observations

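The summed level of the members was lower in PWK/PhJ DE than in any other DE group. It was 269.6, 293.6, 287.6 and 298.7 CPM in the PWK/PhJ lines AC699, AC695, AC698 and AC705 and between 319.6 and 464.4 CPM in the other 13 DE libraries, with no overlap. In EpiSC the PWK/PhJ lines had 368.4, 379.1 and 361.4 CPM, the other libraries 382.8 to 519.1 CPM except the C57BL/6J line 4 at 295.3 CPM. The sum was noticed after the values were seen, weights the abundant members, and was not tested.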
